A study of Arabidopsis thaliana with 12 samples.

Results

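Transcripts of 4 nuclear genes of the photosystems and their antenna, and of 1 gene of the thylakoid lumen, were followed in wild-type plants (ecotype Wassilevskija) of Arabidopsis thaliana. The genes are PSAN of photosystem I, PSBW and PSBY of photosystem II, the antenna gene LHB1B2, and AT4G24930. They were taken by name, as probes annotated to 1 gene only, with earlier results of these data known. They make up 5 of the 691 loci with a single name, on 5 of 3439 probes. The study compared 6 samples of plants given 100 mM proline for 48 h with 6 samples labelled as water and described as untreated. No transgene or mutation is named in either group. Tissue, age and growth conditions are absent from the labels. Of the green-tissue markers set for the check 2 of 13 were measured under a single name, PSAN and LHB1B2 themselves, and of the root and seed markers 0 of 10 and 0 of 6. Separate plants or cultures are not stated for any of the samples, and the p-values then cover only a spread that may be technical.

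Photosystem II takes electrons from water and photosystem I passes them on to ferredoxin, and both sit in the thylakoid membrane of the chloroplast. Chlorophyll-binding antenna proteins collect light for them, and soluble proteins of the thylakoid lumen help to assemble and repair the complexes. Many of the small subunits are encoded in the nucleus and imported, so their messenger RNA can be read on an array of nuclear genes. In bulk samples, fewer cells of a type and less RNA per cell cannot be told apart.

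The 12 deposited columns hold relative intensity on a linear scale, and none of the members' values was 0. Samples 1 and 2, samples 3 and 4, and samples 5 and 6 of a group resembled each other and form sets 1, 2 and 3 below. Over features with values in every sample, partners in a set lay a median of 0.195 to 0.343 log2 units apart in absolute value. Samples of 1 group from different sets lay 0.435 to 0.757 apart. The labels name no batch, so whether a set is a repeat of 1 material or a batch was not tested. The median intensity above 0 was lowest in set 3, at 0.0325 to 0.0335 in water and 0.0335 to 0.0345 in proline, against 0.0678 to 0.0963 in the other sets. The number of arrays limits the precision.

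The members did not move together. The intensity of PSBW was higher in both proline samples than in both water samples of every set, as was that of AT4G24930. Of the 2337 features with values in every sample, 13.9% were so. The normalized log2 differences of PSAN and LHB1B2 were -0.74 and -0.72 in set 1, -1.76 and -1.35 in set 2, and 0.06 and 0.03 in set 3. Averaged over all samples, PSBY was lower by a smaller step. In limma over all features 1 of the 5 passed the threshold, AT4G24930 at 3.01 times its water level, beside 13.2% of all features. That call was lost with the set as a random block (adjusted p = 0.0816), with set means as samples (0.327) and when any 1 of 7 of the 12 samples was left out. The random block joins the partners of 1 group in a set. A fixed block was the set shared by both groups, in a fit that takes partners as independent. There 783 of 3045 features passed, among them AT4G24930 (limma, adjusted p = 0.00471), PSBW, PSAN and LHB1B2.

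PSBW encodes a small membrane-spanning protein of photosystem II that is needed for stable supercomplexes of the photosystem with its antenna. In water its deposited intensity was 13.1 and 15.0 in set 1, 9.49 and 9.80 in set 2, and 4.61 and 5.23 in set 3. With proline it was 22.03 and 22.3 in set 1, 21.3 and 20.6 in set 2, and 8.86 and 8.96 in set 3. Every proline sample thus lay above both water samples of its set, while the 2 groups as a whole overlapped: proline in set 3 lay below water in sets 1 and 2. After quantile normalization proline in set 3, at log2 values of 3.36 and 3.35, still lay below water in set 1, at 3.67 and 3.90. The ratio of the set means was 1.58, 2.17 and 1.81 in sets 1 to 3. Of the 2337 features with values in every sample, 13.9% likewise had both proline samples above both water samples in each set before normalization, and 9.88% did after quantile normalization.

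Values of 0 were taken as missing, and log2 intensities were quantile normalized, which gives all arrays the same distribution. On that scale PSBW averaged 3.31 ± 0.39 in water and 3.80 ± 0.35 with proline (SD, n = 6 and 6). The log2 difference was 0.49 ± 0.24 (SE, limma, adjusted p = 0.187 over all 3045 features tested) and did not pass the threshold of 0.05. In this test 401 features passed, with 5.52% higher and 7.65% lower with proline. The share of calls that were higher was 41.9%, against 62.6% with arrays centred on their median and 85.0% with no normalization between arrays. With median centring PSBW had a log2 difference of 0.82 ± 0.20 and passed (limma, adjusted p = 0.0212), as did 11.2% of all features, and it did not pass there with the set as a random block (adjusted p = 0.0961). Its probe held ranks 8 to 20 from the top of the array, and both proline samples of a set had the same rank: 9 in set 1, 8 in set 2 and 15 in set 3. Quantile normalization replaces an intensity by the mean at its rank, so within these top ranks the size of the step depends on the neighbouring ranks.

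**Figure D1:**
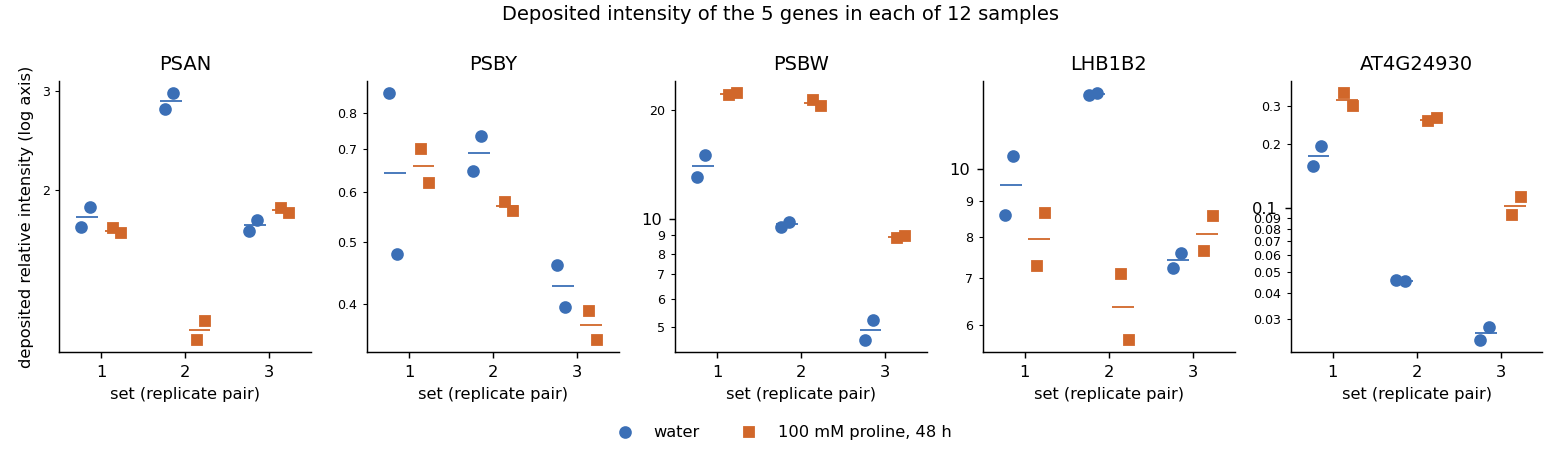
Deposited relative intensity (log axis) of the 5 genes in each of the 12 samples, by set. Each point is a sample and each short line the geometric mean of a pair, with water as circles and proline as squares. PSBW and AT4G24930 lie higher with proline in all 3 sets, and PSAN and LHB1B2 lie clearly lower in set 2 only.

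PSBY, the other gene of photosystem II, encodes a precursor that is cut into a pair of small membrane proteins. Its deposited intensity in water was 0.858 and 0.480 in set 1, 0.647 and 0.735 in set 2, and 0.462 and 0.395 in set 3. With proline it was 0.702 and 0.620, then 0.578 and 0.561, then 0.390 and 0.352. The water samples of set 1 enclosed both proline samples, and in sets 2 and 3 both proline samples were the lower ones. On the normalized log2 scale the means were -0.61 ± 0.30 in water and -1.12 ± 0.15 with proline (SD, n = 6 and 6). The log2 difference was -0.51 ± 0.19 (SE, limma, adjusted p = 0.0939). The log2 differences in sets 1 to 3 were -0.50, -0.70 and -0.32, and water sample 2 decided whether the gene passed: without it the difference was -0.61 (limma, adjusted p = 0.0458).

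LHB1B2 encodes a chlorophyll a/b-binding protein of the main antenna of photosystem II. It belongs to a family of near-identical copies, and since probe sequences were not analysed here, its signal may include theirs. In water its deposited intensity was 8.59 and 10.4 in set 1, 12.7 and 12.8 in set 2, and 7.23 and 7.59 in set 3. With proline it was 7.27 and 8.65, then 7.07 and 5.71, then 7.63 and 8.56. The 2 groups overlapped in set 1, lay apart with proline lower in set 2, and lay apart with proline slightly higher in set 3. The ratio of the water mean to the proline mean was 1.195 in set 1 and 1.998 in set 2, and in set 3 proline was 1.09 times water.

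On the normalized log2 scale LHB1B2 averaged 3.43 ± 0.39 in water and 2.75 ± 0.42 with proline (SD, n = 6 and 6), a difference of -0.68 ± 0.25 (SE, limma, adjusted p = 0.0924). The differences in sets 1 to 3 were -0.72, -1.35 and 0.03. In set 1 both proline samples lay below both water samples on this scale. Without set 3 the difference was -1.005 and passed narrowly (limma, adjusted p = 0.0496), and without set 2 it was -0.34 (limma, adjusted p = 0.473).

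PSAN encodes a subunit on the lumen side of photosystem I, where plastocyanin delivers electrons. In water its deposited intensity was 1.72 and 1.87 in set 1, 2.78 and 2.97 in set 2, and 1.70 and 1.77 in set 3. With proline it was 1.71 and 1.68, then 1.09 and 1.17, then 1.86 and 1.82. The large step was in set 2, where water was 2.54 times proline, while water was 1.06 times proline in set 1 and proline 1.06 times water in set 3. After normalization the log2 difference was -0.74 in set 1, -1.76 in set 2 and 0.06 in set 3, so the steps of sets 1 and 2 were enlarged. The median intensity above 0 of the proline arrays was above that of the water arrays in set 1 and below it in set 2. The cause of the enlarged steps was not tested.

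Over all samples PSAN averaged 1.22 ± 0.27 in water and 0.41 ± 0.75 with proline on the normalized log2 scale (SD, n = 6 and 6). The log2 difference was -0.81 ± 0.32 (SE, limma, adjusted p = 0.105). Without set 3 it was -1.20 and passed (limma, adjusted p = 0.0264), without proline sample 5 alone it was -1.01 and passed (limma, adjusted p = 0.0458), and without set 2 it was -0.35 (limma, adjusted p = 0.562). The spread of the proline samples was therefore mostly one between sets.

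AT4G24930 encodes a protein annotated to the thylakoid lumen, and it had been among the largest increases in earlier results of these data when it was chosen. In water its deposited intensity was 0.158 and 0.196 in set 1, 0.0457 and 0.0452 in set 2, and 0.0241 and 0.0275 in set 3. With proline it was 0.345 and 0.300, then 0.255 and 0.264, then 0.0928 and 0.113. Both proline samples exceeded both water samples of their set throughout, by 1.82, 5.70 and 3.98 times in the set means. The same held for 13.9% of the 2337 features with values in every sample, and for 9.88% after quantile normalization. Its water values were 2.08 and 2.42 times the median above 0 of their array in set 1, but only 0.586 to 0.821 times it in sets 2 and 3. The 2 groups overlapped, with water in set 1 brighter than proline in set 3.

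The normalized log2 mean of AT4G24930 was -3.98 ± 1.1 in water and -2.39 ± 0.28 with proline (SD, n = 6 and 6). It rose by a log2 difference of 1.59 ± 0.42 (SE, limma, adjusted p = 0.0283), larger than the difference of 96.9% of the features tested. The differences in sets 1 to 3 were 0.49, 2.61 and 1.68. With the set as a random block it no longer passed (limma, adjusted p = 0.0816), where 2.69% of features did, and with the 3 set means of each group as samples its adjusted p was 0.327, where 0% of 3269 features passed in limma and 472 reached an unadjusted p under 0.05. With arrays centred on their median it passed also with the random block (limma, adjusted p = 0.0430), as did 80 of 3045 features. With the random block it did not pass after scaling by the sum (limma, adjusted p = 0.107) or with no normalization (limma, adjusted p = 0.510). Without set 2 its difference was 1.09 (limma, adjusted p = 0.225) and without set 3 it was 1.47 (limma, adjusted p = 0.117). Leaving out single samples ended the call for water samples 3, 4, 5 and 6 and proline samples 1, 3 and 4, with adjusted p of 0.0504 to 0.0616 in limma and differences of 1.41 to 1.57.

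**Figure D2:**
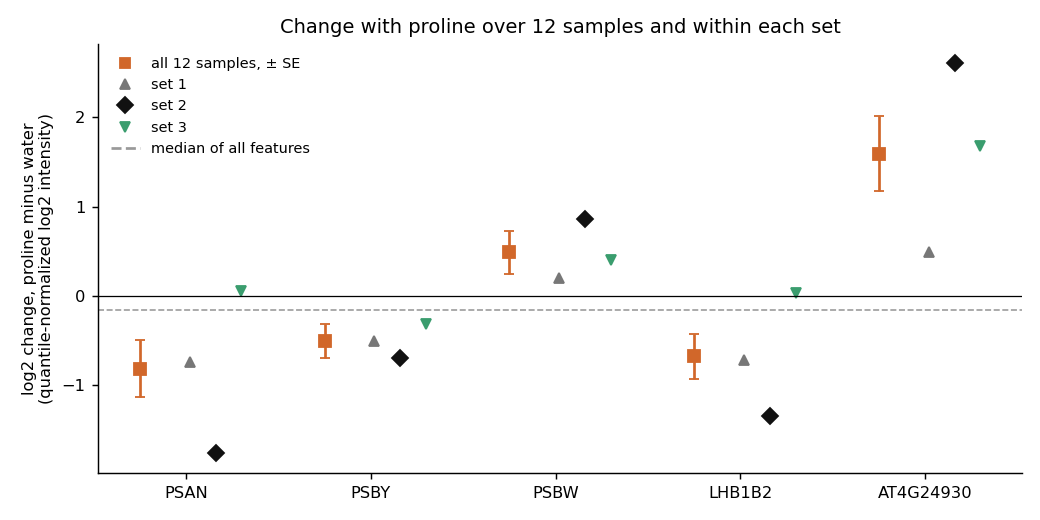
Log2 difference between proline and water (quantile-normalized log2 intensity) for each gene over all 12 samples (squares, ± SE) and within sets 1, 2 and 3. The dashed line is the median of all features, -0.16, and PSAN and LHB1B2 lie near 0 in set 3 and lowest in set 2.

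The sets differed from each other in the size of the change for 3 of the 5 genes. A limma fit with an interaction of set and treatment, which takes partners as independent, gave an adjusted p of 0.00267 for PSAN, 0.0206 for LHB1B2 and 0.00468 for AT4G24930. The same fit gave 0.0727 for PSBW and 0.730 for PSBY. Of the 2337 features with values in every sample, 22.9% passed in this fit, so such differences between sets were common on these arrays.

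The scaling of the arrays moved the values of all 5 genes without changing a sign over all 12 samples. The log2 difference of PSBW ran from 0.49 with quantile normalization to 0.88 with none, that of PSAN from -0.81 to -0.45, that of LHB1B2 from -0.68 to -0.38 and that of PSBY from -0.51 to -0.15. AT4G24930 stayed between 1.52 and 1.79, and with no normalization, where 0.657% of features passed, it did not pass (limma, adjusted p = 0.136). The median of all features was -0.16 with quantile normalization or median centring, -0.02 with zeros kept and -0.34 with arrays scaled by their sum. Relative to that median, PSBY came closest to the middle of the features: 47.8% to 48.0% of them lay below it with median centring, scaling by the sum or no normalization, and 32.8% with quantile normalization. PSBW lay above 79.0% of the features with quantile normalization and above 87.8% to 88.1% with median centring, scaling by the sum or no normalization.

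**Figure D3:**
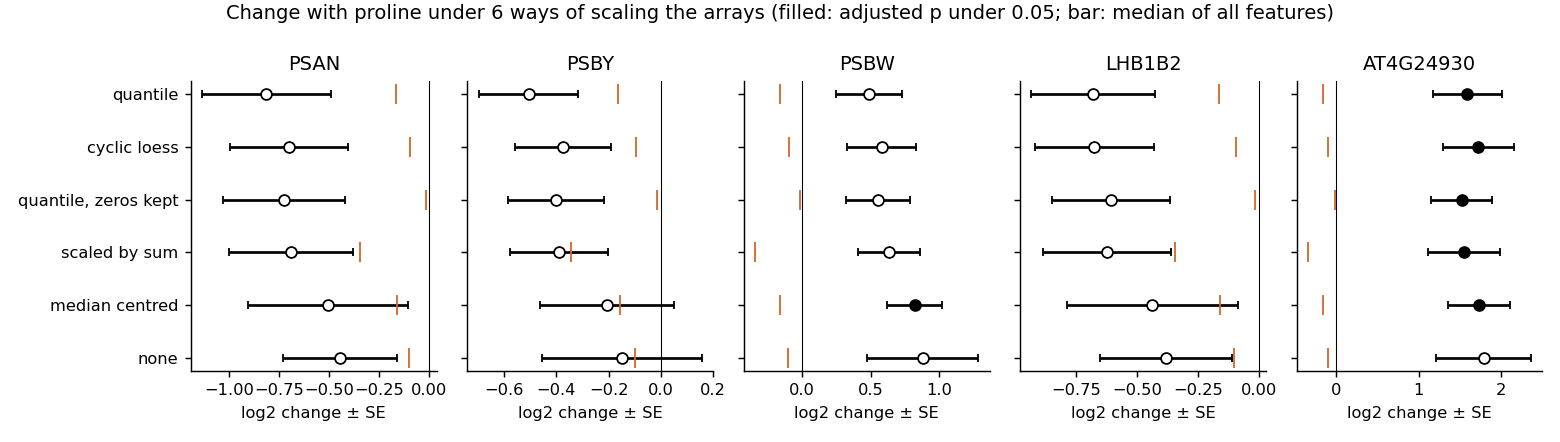
Log2 difference between proline and water (± SE, 6 samples per group) for each gene under 6 ways of scaling the arrays. Filled points passed an adjusted p of 0.05 in limma and short bars mark the median of all features. PSBW passed with median centring, AT4G24930 in all but the setting with no normalization, and the other 3 genes in none of the 6.

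Ratios of 2 probes on the same array do not depend on the scaling between arrays, and they show only unequal change. PSBW and AT4G24930 were already known from these data to differ in direction from the others. The p-values of their ratios below are therefore no independent evidence. PSBW over LHB1B2 was 1.52 and 1.44 in water in set 1, 0.745 and 0.766 in set 2, and 0.638 and 0.688 in set 3. With proline it was 3.03 and 2.58, then 3.02 and 3.604, then 1.16 and 1.05. Both proline arrays thus had the higher ratio in every set, while set 3 with proline still lay below set 1 in water. Averaged over the samples, the log2 ratio was higher by 1.26 with proline, a factor of 2.39 (two-sided exact permutation test with all 12 arrays, p = 0.0130, 0.0303 after adjustment over the 10 pairs of genes).

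PSBW over PSAN was higher by 1.33 on the log2 scale, with differences of 0.74, 2.47 and 0.77 in sets 1 to 3 (exact permutation p = 0.0238, 0.0397 adjusted over the 10 pairs). PSBW over PSBY was higher by 1.03, with 0.62, 1.40 and 1.07 in the sets (exact permutation p = 0.00649, 0.0303 adjusted). These tests take the 12 arrays as independent. With set means the exact permutation p of the 3 PSBW ratios was 0.1 to 0.2 (0.333 adjusted over the 10 pairs), and each of the 3 lost its adjusted call when any 1 of 8 of the 12 samples was left out. Among PSBY, PSAN and LHB1B2 the 3 ratios differed by 0.07 to 0.30 in size, with exact permutation p of 0.318 to 0.593, which does not show that these genes changed alike. In sets 1 and 2 PSBY over LHB1B2 was higher with proline, by 0.29 and 0.73, and in set 3 it was lower, at -0.33.

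AT4G24930 was higher relative to each of the others, by 2.24 on the log2 scale over PSAN, 2.17 over LHB1B2, 1.94 over PSBY and 0.91 over PSBW (exact permutation p of 0.00649 to 0.0281, 0.0303 to 0.0402 adjusted over the 10 pairs). Its ratio to PSBW differed least in set 1, by 0.21. With the set means as samples, the exact permutation p of all 10 ratios was 0.1 to 0.6, and 0.1 is the smallest that 3 against 3 allows. The genes were chosen with results of these data known, and PSBW and AT4G24930 were then known to differ in direction from the others, so these ratios describe the arrays and are no independent evidence.

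**Figure D4:**
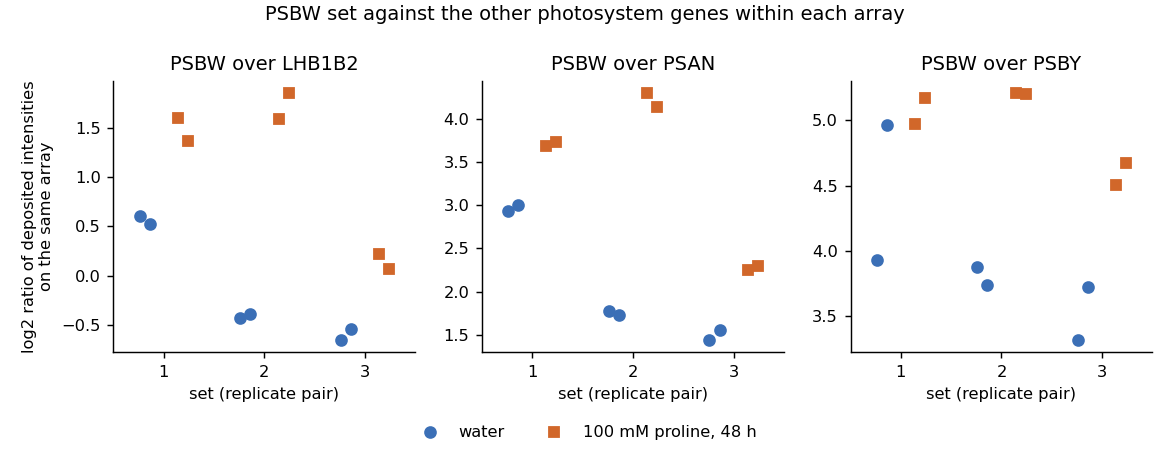
Log2 ratio of the deposited intensity of PSBW to that of LHB1B2, PSAN and PSBY on the same array, for each of the 12 samples by set. The ratio is higher in both proline samples than in both water samples of every set for all 3 genes. For PSBY in set 1 this holds only narrowly, with water sample 2 at 4.965 and proline sample 1 at 4.973.

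In water the probes of the photosystem genes were among the brightest on the array. Brightness also depends on the probe, so its order is no order of transcript abundance. By mean normalized log2 intensity in water, LHB1B2 ranked 15 and PSBW 17 of 3254 features, PSAN 72, PSBY 247 and AT4G24930 1490. Among the 652 loci with a single name these ranks were 4, 5, 11, 37 and 264. LHB1B2 and PSBW differed by less than the spread of their samples, at 3.43 ± 0.39 and 3.31 ± 0.39 (SD, n = 6).

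A rank within an array needs no scaling, and it changed with proline as follows. PSBW ranked 10 to 20 in water (median 17.5) and 8 to 15 with proline (median 9), and LHB1B2 9 to 19 (median 16.5) and 16 to 27 (median 22.5). In set 2 both changed places, with LHB1B2 at 11 and 9 in water and 21 and 26 with proline, and PSBW at 18 and 17 in water and 8 and 8 with proline. In set 3 the order changed too, by fewer ranks. There LHB1B2 was at 17 and 17 in water and 16 and 16 with proline, and PSBW at 20 and 19 and then 15 and 15. PSAN ranked 58 to 93 in water and 62 to 200 with proline. Its ranks in set 3 were 67 and 71 in water and 62 and 65 with proline, so the drop was one of sets 1 and 2. AT4G24930 ranked 717 to 2260 in water and 543 to 836 with proline, and its lowest ranks, 2260 and 2204, were those of water in set 2.

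**Figure D5:**
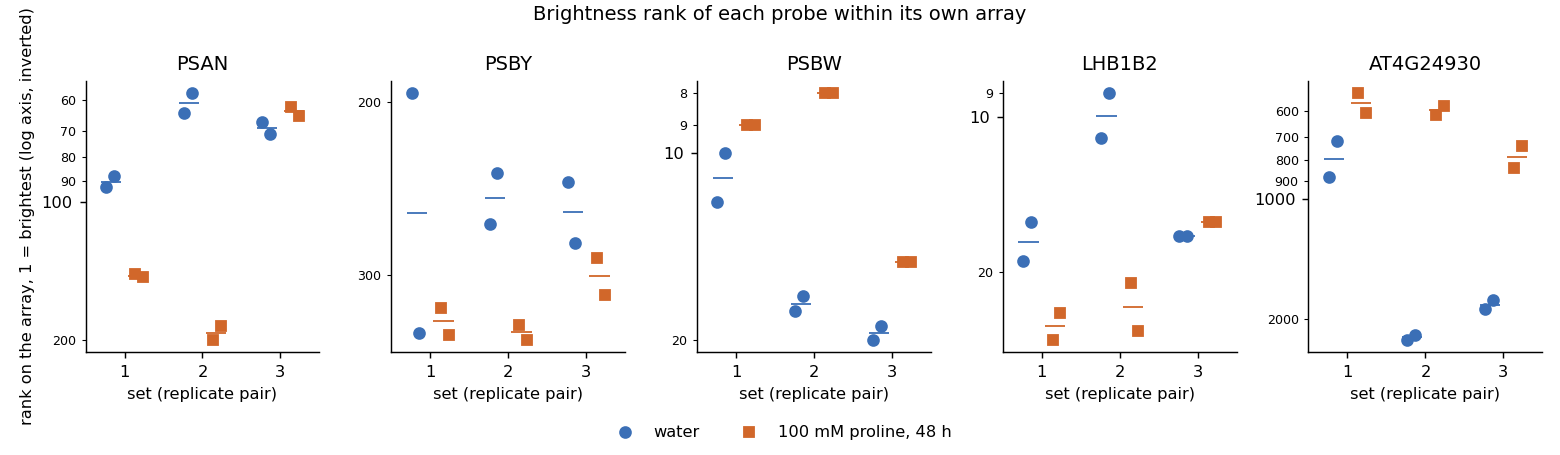
Rank of each probe among all 3439 probes of its own array (log axis, inverted, 1 is the brightest) in each sample by set. LHB1B2 and PSBW exchange places in set 2, and AT4G24930 moves from 2260 and 2204 to 614 and 583 there.

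As a share of the summed intensity of its array, PSBW made up 0.945% ± 0.271 in water and 1.44% ± 0.229 with proline, and LHB1B2 1.02% ± 0.146 and 0.701% ± 0.290 (SD, n = 6). PSAN made up 0.222% ± 0.0481 and 0.148% ± 0.0740. The spread of LHB1B2 with proline again came from set 3, where its share was 1.01% and 1.13%, against 0.458% to 0.569% in the other sets.

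The loci whose profile over the 12 samples was nearest to each gene were found by the root mean square difference of normalized log2 values, each profile centred on its own mean, among 445 loci with a single name. Nearest to LHB1B2 were PRK, the phosphoribulokinase of the Calvin cycle (0.209), AT1G44830 (0.215) and AT2G47360 (0.228), where the median locus lay at 0.760. PSAN was at 0.327 from LHB1B2, the 14th of its neighbours, and LHB1B2 was 4 in the order of PSAN's, after AT2G40980 (0.279), OSB1, an organellar single-stranded DNA-binding protein (0.322), and AT1G44830 (0.325). Nearest to PSBY were AT5G06790 (0.184), AGL103, a MADS-box factor (0.231), and AT3G12000 (0.238).

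Nearest to PSBW were AT3G19810 (0.174), FZL, a dynamin-like protein of the chloroplast (0.206), and AT4G33540 (0.208). Of the other 4 genes, PSBY lay at 0.687 and AT4G24930 at 0.734 from PSBW, nearer than its median locus at 0.808, and LHB1B2 at 0.857 and PSAN at 1.04 lay farther. Nearest to AT4G24930 were AT5G46560 (0.203), AT1G51080 (0.317) and AT4G09620 (0.335), with PSBW at 0.734 the closest of the other 4 genes. These distances describe the 12 arrays, which share the sets.

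Other genes of the light reactions and of chlorophyll synthesis were taken by symbol or name, and 7 were measured under a single name. None of the 7 passed in either direction in limma, where 13.2% of all features did. An unadjusted p under 0.05 was reached by 2 of the 7, and by 30.8% of all features, so the list did not stand above the background. Their log2 difference was below 0 for 6 and above 0 for 1, with a median of -0.29, against -0.16 over all features and -0.51 over the 5 members. PSB27, a lumen protein of photosystem II assembly, was at -0.91 ± 0.37 (SE, limma, adjusted p = 0.113), with -1.87, -0.77 and -0.09 in sets 1 to 3. LPA19, a related assembly protein, was at -0.78 ± 0.29 (limma, adjusted p = 0.0896), with -0.39, -0.89 and -1.05. Neither of these assembly genes passed, and the difference of PSB27 was smallest in size in set 3.

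CHLM, the methyltransferase of magnesium protoporphyrin in chlorophyll synthesis, had a log2 difference of -0.36 ± 0.27, and HEMA3, a glutamyl-tRNA reductase gene at the start of that pathway, -0.29 ± 0.20. NdhN and NdhS, subunits of the chloroplast NADH dehydrogenase-like complex around photosystem I, were at -0.26 ± 0.25 and -0.05 ± 0.21. PIFI, named for a rise of chlorophyll fluorescence after illumination, was at 0.58 ± 0.36, with 0.20, 0.46 and 1.096 in sets 1 to 3. The adjusted p of these 5 genes was 0.291 to 0.908 in limma. With the set as a random block the adjusted p of the 7 genes was 0.208 to 0.948.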

How the data were processed

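The authors deposited 1 table of relative intensity for 3439 probes in 12 samples, and this unit was read from the values. For the array's dyes, background correction, scaling and genome build the sources used here give nothing. Exact zeros made up 8.43% of the values, with 153 to 235 in each water array and 352 to 424 in each proline array. With zeros kept, 54.2% of the calls were higher with proline, against 41.9% with zeros missing. Probe names came from GEO's platform annotation, updated through gene identifiers to TAIR10.1 names: 692 probes had 1 gene, 870 several and 1877 none listed. Zeros were taken as missing, the log2 values were quantile normalized, and probes of 1 locus were averaged. Features with at least 4 values per group went into lmFit and eBayes of limma 3.58.1 (statmod 1.5.0 under R 4.3.3), with Benjamini-Hochberg adjustment over all 3045 features and a threshold of 0.05. Ratios within arrays were tested with exact permutation tests (scipy 1.17.1). The fit was tested on simulated data whose samples were independent. Sets were not simulated, so that test cannot show how the fit handles the likeness of partners.

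The members and lists were chosen with earlier results of these data known. All 5 members were named, the other genes of the light reactions where at most 10 were tested, and for each member the 3 nearest loci. The chloroplast lipocalin CHL, caught by its symbol alone, was left out. Same-numbered samples of both groups deviated together (correlation across features 0.134 to 0.256 for the 6 numbers), so a replicate block was an alternative. The main fit and the permutation tests took the samples as unpaired. Other alternatives were the scaling, the treatment of zeros and dim features, the variance model, the set, and leaving out each sample or set. Scaling by the sum, the random block with other scalings and the interaction fit were chosen after seeing the data. Sequences were not used here.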

Additional observations from a re-analysis of the deposited data

Results flagged for a closer look

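The change with proline differed between the 3 sets for PSAN (limma interaction, adjusted p = 0.00267), LHB1B2 (0.0206) and AT4G24930 (0.00468). The fit takes the partners of a set as independent samples, and 22.9% of all features with complete values passed in it. The sets are pairs of sample numbers and no groups of the study, and the cause of the difference was not tested. In the 10 groups of 6 normalized values, 0 lowest or highest samples passed Dixon's test for a gap to the nearest other sample. That nearest sample can be the partner in the same set, which then hides a pair that lies apart. For PSAN with proline, both samples of set 3 lay above all the other proline samples, and the test passed neither. It therefore cannot show that no sample or pair stood apart.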

How the results depend on the processing

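No log2 change of the 5 genes changed sign under any of the 30 alternatives. Many of these could not change it: another choice of features, variance model or block gives the same log2 change by arithmetic. Only other scalings, kept zeros and left-out samples or sets could move the value. The 401 calls over all features became 436 with the replicate block, which added or ended no call among the 5 genes, and 0 with set means. They became 82 with the random block, made of the partners of 1 group in a set. With the set shared by both groups as a fixed block they became 783. They became 619, 61 and 265 with set 1, 2 or 3 left out, 20 with no normalization, 245 to 480 without 1 sample, and 80, 54 and 6 with the random block after median centring, scaling by the sum or no normalization. The share that rose was 30.5% to 62.6% under the other scalings, and 85.0% with no normalization. PSAN passed with the fixed block (-0.81, adjusted p = 0.0448) and without set 3 (-1.20), and ran from -1.01 to -0.67 without 1 sample, PSBY from -0.61 to -0.43. PSBW passed with median centring (0.82) and the fixed block (0.49), and LHB1B2 with trend and robust (-0.68), the fixed block (-0.68) and without set 3 (-1.005). AT4G24930 did not pass with no normalization (1.79), the random block (1.59, after scaling by the sum 1.55, with no normalization 1.79), set means (1.59), or without set 2 (1.09) or 3 (1.47), and ran from 1.41 to 1.92 without 1 sample.

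Set means give the same log2 ratios by arithmetic, and no adjusted p could pass there: AT4G24930 over PSBW 0.91, PSBY 1.94, PSAN 2.24 and LHB1B2 2.17, and PSBW over PSBY 1.03, PSAN 1.33 and LHB1B2 1.26. Without 1 sample they ran from 0.80 to 1.101, 1.74 to 2.34, 2.04 to 2.61, 1.99 to 2.49, 0.91 to 1.24, 1.15 to 1.56 and 1.11 to 1.47 in the same order, with adjusted p of 0.0216 to 0.0804, over the threshold for 8 of the 12 samples (9 for AT4G24930 over PSBW). PSAN over LHB1B2 was -0.07 and ran from -0.12 to 0.0164, turning without proline sample 3 (adjusted p = 0.866). The cause of these shifts was not tested. Signal over background was not analysed here.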
